A study of Mus musculus with 6 samples.

Results

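Aminoacyl-tRNA synthetases were read on whole-genome mouse arrays of cells grown out of dedifferentiated heart muscle cells, and of mature heart muscle cells. The genes were chosen by symbol: the enzymes of the cytosol, and those of the mitochondrion whose symbols end in 2. Of 36 listed genes, 35 were measured among 20677 genes in all, namely 19 of 20 cytosolic and all 16 mitochondrial enzymes. Kars, the lysine enzyme of both compartments, was left out because its probe set named a second gene. Where a gene had several probe sets, that with the highest average level stood for it. The CPC group was 3 arrays of cardiac progenitor cells that had grown out of dedifferentiated, dividing cardiomyocytes in prolonged culture. The Ctl group was 3 arrays of freshly isolated cardiomyocytes of adult mice. Cells of both groups came from bi-transgenic mice, and the labels name neither the transgenes nor a sex. By the labels, cells were captured singly in a microfluidic device and their cDNA was amplified before hybridisation. Since culture was given to CPC cells alone, culture and dedifferentiation cannot be told apart here. The labels name no animal or culture, nor the number of cells on an array, so that p-values measure only the spread between these arrays, which may be technical.

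Aminoacyl-tRNA synthetases join each amino acid to its tRNA and so supply the ribosome. They fall into a pair of structural classes, and in mammals several cytosolic enzymes are held in a multi-synthetase complex by scaffold proteins. Mitochondria, which are abundant in heart muscle, import their own set of nuclear-encoded enzymes to translate the respiratory chain subunits of mitochondrial DNA. When amino acids run short or the endoplasmic reticulum is stressed, the transcription factor ATF4 raises many cytosolic synthetase genes together with amino acid transporters and biosynthetic enzymes, through a short promoter motif called the amino acid response element.

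The promoters of the cytosolic enzymes that hold this element are shown here, since they mark which members carry the letters of the ATF4 motif, and Mars2 is shown as the mitochondrial enzyme that fell. Sequences are from RefSeq, build GRCm38.p6, and run 5′ to 3′ along the gene, with 250 bases before the start and 50 after it. The motif TGATGNAA was searched on both strands, capitals mark each match as it reads on the printed strand, and the Mars2 window holds no match. The windows lie at chr6:55037751-55038050, plus strand (Gars), chr15:11399609-11399908, minus strand (Tars), chr4:129189653-129189952, plus strand (Yars), chr13:49681880-49682179, plus strand (Iars), chr8:111033592-111033891, plus strand (Aars) and chr1:55236927-55237226, plus strand (Mars2).
Gars promoter: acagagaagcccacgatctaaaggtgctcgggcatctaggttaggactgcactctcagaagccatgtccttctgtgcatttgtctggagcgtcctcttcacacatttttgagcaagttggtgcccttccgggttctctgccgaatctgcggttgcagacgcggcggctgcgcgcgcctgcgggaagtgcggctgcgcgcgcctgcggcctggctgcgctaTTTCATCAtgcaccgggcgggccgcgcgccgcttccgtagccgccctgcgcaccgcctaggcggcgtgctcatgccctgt
Tars promoter: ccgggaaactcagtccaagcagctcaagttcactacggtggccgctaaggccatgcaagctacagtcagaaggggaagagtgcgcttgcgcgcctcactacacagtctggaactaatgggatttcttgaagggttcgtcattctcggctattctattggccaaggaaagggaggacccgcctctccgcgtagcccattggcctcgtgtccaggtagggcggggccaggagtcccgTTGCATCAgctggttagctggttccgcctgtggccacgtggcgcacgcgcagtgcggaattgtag
Yars promoter: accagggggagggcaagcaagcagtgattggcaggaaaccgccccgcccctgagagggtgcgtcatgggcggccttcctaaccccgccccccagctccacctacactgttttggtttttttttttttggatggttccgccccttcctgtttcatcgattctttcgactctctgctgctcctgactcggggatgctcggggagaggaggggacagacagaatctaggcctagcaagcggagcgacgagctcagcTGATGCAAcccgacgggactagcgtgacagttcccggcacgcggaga
Iars promoter: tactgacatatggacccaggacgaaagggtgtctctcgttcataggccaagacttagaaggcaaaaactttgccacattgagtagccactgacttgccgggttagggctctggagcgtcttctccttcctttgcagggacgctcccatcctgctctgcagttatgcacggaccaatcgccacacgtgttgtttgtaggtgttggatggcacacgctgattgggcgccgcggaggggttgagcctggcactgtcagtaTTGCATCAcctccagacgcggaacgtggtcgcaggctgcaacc
Aars promoter: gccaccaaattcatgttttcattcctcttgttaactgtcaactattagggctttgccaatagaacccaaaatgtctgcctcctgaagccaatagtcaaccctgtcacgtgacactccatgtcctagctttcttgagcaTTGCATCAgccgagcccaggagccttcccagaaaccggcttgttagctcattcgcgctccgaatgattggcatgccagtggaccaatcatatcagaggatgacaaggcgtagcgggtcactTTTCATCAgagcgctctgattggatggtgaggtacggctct
Mars2 promoter: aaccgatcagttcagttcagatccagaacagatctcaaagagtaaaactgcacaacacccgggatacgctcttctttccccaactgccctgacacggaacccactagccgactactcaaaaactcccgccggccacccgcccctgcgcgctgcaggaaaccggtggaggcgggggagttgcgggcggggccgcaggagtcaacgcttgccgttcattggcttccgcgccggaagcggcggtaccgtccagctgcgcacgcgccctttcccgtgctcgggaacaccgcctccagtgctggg

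Of the measured members, 26 had a promoter in the RefSeq table, 12 of them cytosolic and 14 mitochondrial. The motif was found in 5 of the 12 cytosolic promoters (41.7%) and in 0 of the 14 mitochondrial ones, against 3.97% of all 32851 promoters in the table. The first base of the match lay 30 bases before the start in Gars and 15 bases before it in Tars. It lay 3 bases after the start in Yars and 7 bases after it in Iars. Aars held a pair of matches, 112 bases before and 9 bases after a start that itself lies 6064 bases inside the annotated gene. A match describes letters and not a bound site. Cars, Hars, Lars, Nars, Rars, Vars, Wars, Hars2 and Pars2 had no entry in the table.

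The identity of the arrays was checked first. All 8 cardiomyocyte markers fell in CPC (limma, adjusted p at most 0.00211), with a mean log2 level between 7.01 and 7.61 on the CPC arrays, against 13.52 to 13.65 on the Ctl arrays. Of the fibroblast markers, Col1a1, a collagen chain, rose by 3.33 (adjusted p = 0.000432) and the other 5 did not pass. The mean of the fibroblast list lay at 9.26 to 10.04 in CPC and at 7.85 to 8.61 in Ctl. No endothelial, smooth muscle or macrophage marker passed. Their list means lay at 7.35 to 7.63 in CPC and 7.39 to 8.66 in Ctl for the 5 endothelial genes, at 8.62 to 9.77 in CPC and 7.73 to 8.29 in Ctl for the 4 smooth muscle genes, and at 7.35 to 7.63 in CPC and 7.14 to 7.24 in Ctl for the 5 macrophage genes. The CPC arrays were less alike (Pearson r of 0.792 to 0.858 over all probe sets) than the Ctl arrays (0.933 to 0.971). The part of cell type, and of the 3′ to 5′ balance of the RNA, in the results was not tested. That balance, the 3′ minus 5′ difference of the Actb control probe sets, was 0.0022 to 0.3696 in CPC, against -0.8475 to -0.4055 in Ctl (exact two-sided permutation p = 0.1, the smallest that 3 against 3 arrays allow). For Gapdh the groups overlapped, at 2.0862 to 3.5339 in CPC and 1.7715 to 2.2119 in Ctl (exact two-sided permutation p = 0.3). CPC 3 had the highest value of all arrays for both control genes. It also had the smallest SD over all probe sets, at 1.41, against 1.59 to 1.66 on the other arrays. The part of this in the CPC 3 values below was not tested. In these arrays fewer cells and less RNA per cell cannot be told apart.

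Among the synthetases CPC differed from Ctl in both directions, and few differences passed the test. Nars rose in the cytosolic set and Mars2 fell in the mitochondrial set. Of the 19 cytosolic enzymes, 1 was higher and 0 were lower at an adjusted p under 0.05 by limma over 45037 probe sets, where 1.15% of all genes were higher and 4.47% were lower. Of the 16 mitochondrial enzymes, 0 were higher and 1 was lower. At an unadjusted p under 0.05, 5 cytosolic enzymes were higher (Farsa, Hars, Nars, Vars and Yars) and 0 lower, against 11.0% higher and 10.2% lower of all genes. By the same measure 1 mitochondrial enzyme was higher (Vars2) and 4 were lower (Iars2, Mars2, Nars2 and Rars2). The median difference of the cytosolic enzymes was 0.39, beside 0.19 over all genes. Without CPC 1 it was 0.17, below the 0.24 of all genes in the same fit, and without CPC 3 it was 0.67, beside 0.096 of all genes.

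**Figure D1:**
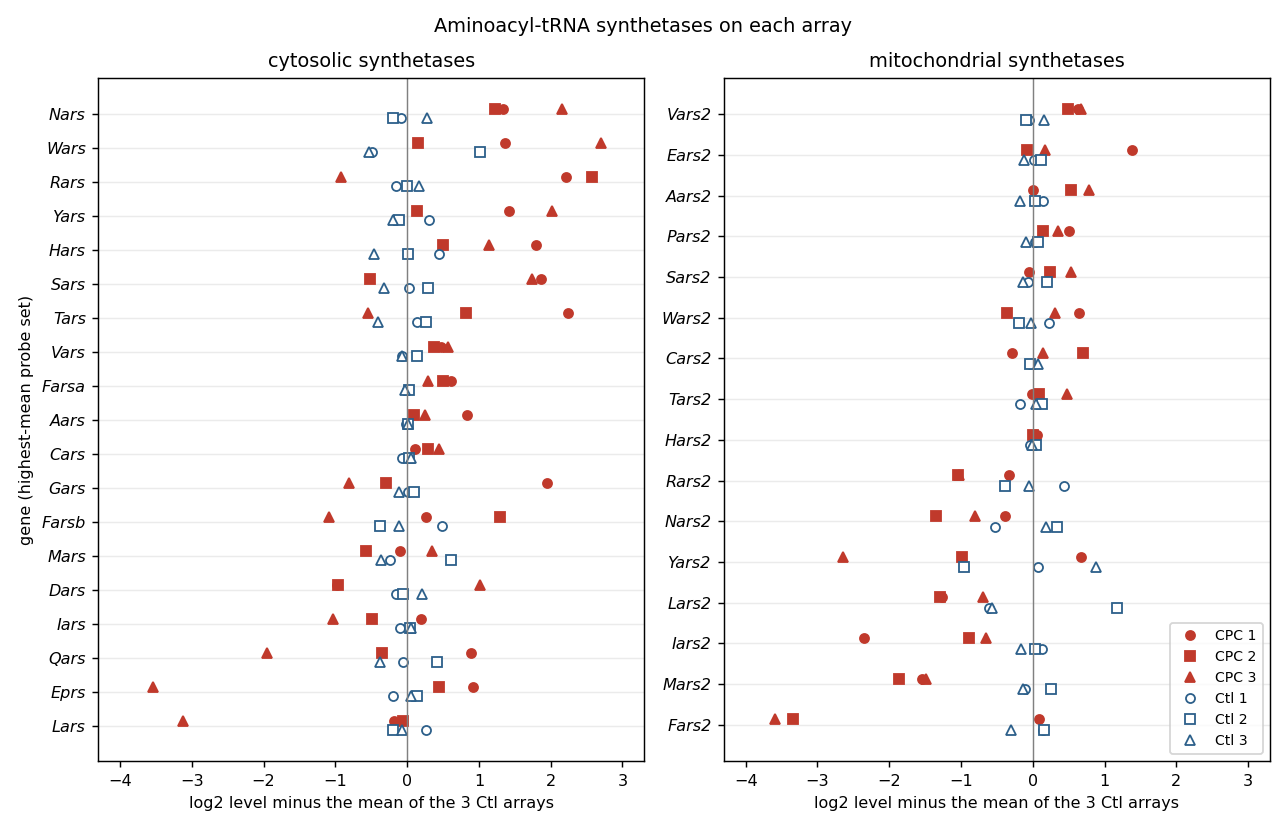
The log2 level of each enzyme on each array minus the mean of its 3 Ctl arrays, with the CPC arrays as filled symbols and the Ctl arrays as open ones. Nars and Mars2 stand clear of Ctl on all 3 CPC arrays, whereas Rars, Eprs, Lars, Gars and Fars2 are spread over several log2 units among the CPC arrays.

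Nars, the asparagine enzyme of the cytosol, had log2 levels of 12.48, 12.36 and 13.30 on CPC 1, 2 and 3, against 11.06, 10.95 and 11.41 on Ctl 1, 2 and 3. Every CPC array lay above every Ctl array, and CPC 3 was the highest. The difference was 1.57 ± 0.30 on the log2 scale (SE, 3 arrays a group), or 2.98-fold (adjusted p = 0.0361). The call was lost without CPC 1 (adjusted p = 0.0539) and without any 1 of the Ctl arrays (0.0919 to 0.144). Its other probe set did not share the rise, at 10.74, 10.33 and 9.64 in CPC, against 10.46, 10.50 and 10.68 in Ctl.

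Vars, Farsa, Aars, Cars and Hars also had no overlap between groups, so that 6 of 19 cytosolic enzymes lay above Ctl on every CPC array, against 21.9% of all genes. None lay below Ctl on every CPC array, against 11.0% of all genes. Hars, the histidine enzyme, had 11.73, 10.43 and 11.08 in CPC, against 10.38, 9.95 and 9.48 in Ctl (difference 1.14, adjusted p = 0.181). Vars, the valine enzyme, lay at 7.11, 7.02 and 7.21 in CPC and at 6.58, 6.78 and 6.57 in Ctl, a smaller gap with a tighter spread (0.47, adjusted p = 0.164). Farsa, the catalytic subunit of the phenylalanine enzyme, was similar (9.12, 9.01 and 8.80 in CPC, against 8.51, 8.53 and 8.49 in Ctl). Its partner subunit Farsb had a difference of 0.15 with overlapping groups.

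Wars, Rars and Yars had the next largest measured differences after Nars, and their groups overlapped. Wars, the tryptophan enzyme, which interferon induces in human cells, had 9.13, 7.90 and 10.46 in CPC, against 7.27, 8.77 and 7.23 in Ctl (1.40, adjusted p = 0.325). CPC 2 lay below Ctl 2 there. The other Wars probe sets differed by 0.35, 0.36 and 0.48, and the mean of all its probe sets by 0.65. Yars, the tyrosine enzyme, had 7.58, 6.30 and 8.18 in CPC, against 6.47, 6.05 and 5.97 in Ctl (1.19, adjusted p = 0.239). Here CPC 2 was again the lowest CPC array and lay within the Ctl range. All 3 Ctl arrays and CPC 2 lay at or under 6.55, the highest lower quartile of any array, taken here as the limit of background. With the Ctl mean set to that limit the Yars difference was 0.80, or 1.74-fold, below the differences of Hars, Sars and Tars. CPC 2 entered at its measured value, so 0.80 is not a strict bound, and Yars did not pass. Sars, the serine enzyme, had 11.64, 9.24 and 11.51 in CPC, against 9.79, 10.06 and 9.45 in Ctl (1.03, adjusted p = 0.397), with CPC 2 below all Ctl arrays. Without CPC 2, Sars (1.81, adjusted p = 0.0201) and Yars (adjusted p = 0.0352) passed. That fit was picked out after the values were seen, as CPC 2 lay apart, so these passes give no support for a rise.

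The enzymes inside and outside the multi-synthetase complex were set side by side, with no test between them. Of the 7 measured enzymes of the complex, 6 had a negative difference, with a median of -0.44, and none passed. Of the 12 cytosolic enzymes outside it, all 12 had a positive difference, with a median of 0.66, and Nars passed. With the Ctl mean of Yars set to the limit of background that median was 0.64. Of all genes, 68.1% had a positive difference, with a median of 0.19. The count in the complex changed with the arrays: 3 of its enzymes were positive and 4 negative both without CPC 2 (median -0.42) and without CPC 3 (median -0.11), and 2 were positive without CPC 1 (median -0.76). Outside the complex 11 of 12 were positive without CPC 1 or CPC 2, and 12 of 12 without CPC 3. Without Ctl 2, 2 of 7 inside and 11 of 12 outside were positive. Signs also varied with the probe set. Outside the complex another probe set of Farsa, Farsb and Nars lay at -0.05, -0.56 and -0.31, and inside it another bright one of Qars at 0.13. With the mean of the probe sets of a gene, 1 of 7 and 12 of 12 were positive. Without probe sets that match several transcripts, 2 of 7 and 12 of 12 were.

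**Figure D2:**
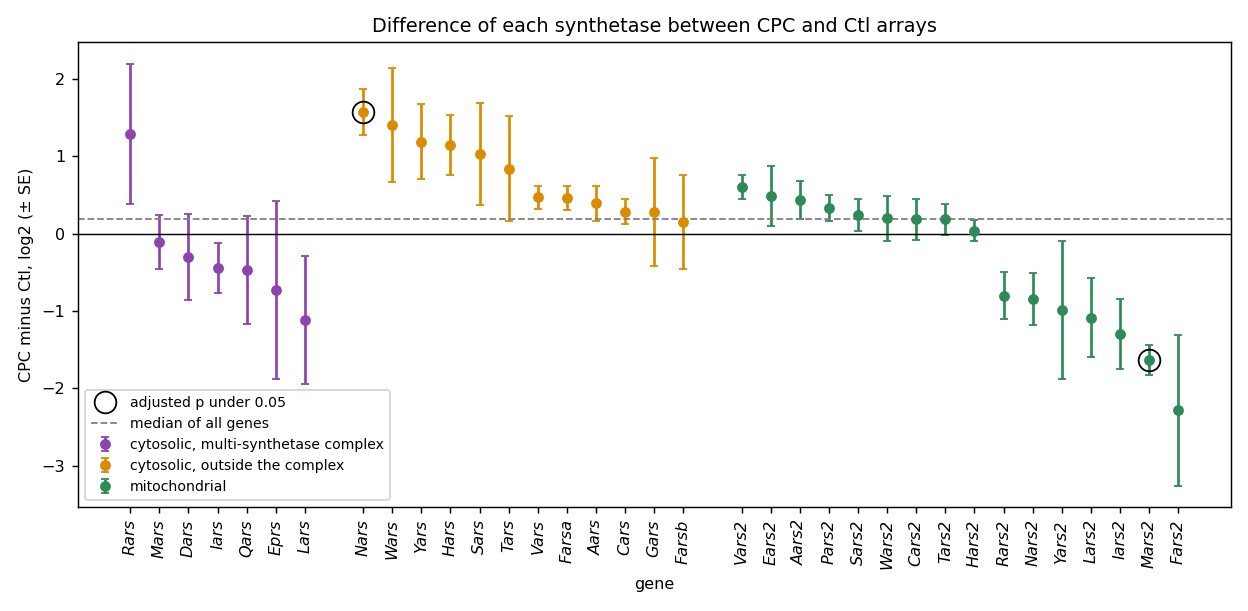
The CPC minus Ctl difference of each enzyme on the log2 scale with its SE from limma, for the complex, the other cytosolic enzymes and the mitochondrial enzymes. With all 6 arrays and the highest-mean probe set of each gene, the 12 cytosolic enzymes outside the complex all lie above 0. By the same reading 6 of the 7 in the complex lie below 0. The 2 circled genes are those that passed.

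Rars, the arginine enzyme, was the member of the complex that lay above Ctl, at 11.05 and 11.41 on CPC 1 and CPC 2 but 7.92 on CPC 3, against 8.68, 8.83 and 9.00 in Ctl. CPC 1 and CPC 2 were over 2 log2 units above every Ctl array and CPC 3 lay below all of them. The difference was 1.29 (adjusted p = 0.433) with all arrays and 2.40 (adjusted p = 0.00491) without CPC 3. The latter fit was picked out after the values were seen, so its smaller p gives no support for a rise. Lars, the leucine enzyme, which also reports leucine to the growth regulator mTORC1, had 10.41, 10.54 and 7.46 in CPC, against 10.85, 10.40 and 10.52 in Ctl (-1.12, adjusted p = 0.451). Eprs, the fused enzyme for glutamate and proline, had 10.96, 10.49 and 6.50 in CPC, against 9.84, 10.18 and 10.10 in Ctl (-0.73, adjusted p = 0.712). In both genes CPC 1 and CPC 2 lay near or above Ctl. CPC 3, the array with the highest 3′ minus 5′ values of the control genes, lay far below. For Eprs, CPC 3 was also the lowest array on another pair of probe sets, at 7.60 and 7.57, while its dimmest probe set lay under the limit of background on all 6 arrays and could show no drop.

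The glutamine enzyme Qars followed the same order, at 11.37, 10.12 and 8.52 in CPC, against 10.43, 10.90 and 10.10 in Ctl. A second bright Qars probe set did not, at 10.07, 9.42 and 10.27 in CPC, against 9.72, 10.04 and 9.62 in Ctl. Dars, the aspartate enzyme of the complex, ran the other way: CPC 3 was the highest array at 10.56, with 8.57 and 8.59 on CPC 1 and CPC 2, against 9.39, 9.48 and 9.76 in Ctl. Iars and Mars, the isoleucine and methionine enzymes, differed by -0.44 and -0.11, with overlapping groups. Of the scaffold proteins of the complex, 0 of 3 passed in either direction. Eef1e1 (AIMP3), with the smallest p of them, had 9.68, 10.13 and 6.64 in CPC, against 7.22, 6.33 and 7.24 in Ctl (1.88, adjusted p = 0.305). CPC 1 and CPC 2 lay above Ctl, as in Rars, and CPC 3 lay within the Ctl range. Without CPC 3 the difference was 2.97 (adjusted p = 0.0150), in a fit picked out after the values were seen. Aimp1, another scaffold, was also lowest on CPC 3, at 8.48, against 10.72 and 9.73 on CPC 1 and CPC 2 and 9.81 to 10.15 in Ctl.

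The spread within CPC was thus large for the cytosolic enzymes. The SD of the CPC arrays exceeded that of the Ctl arrays in 17 of 19 cytosolic and 11 of 16 mitochondrial enzymes, against 74.7% of all genes. The median SD of the cytosolic enzymes was 1.15 in CPC and 0.23 in Ctl, and that of the mitochondrial enzymes was 0.40 in CPC and 0.17 in Ctl. The median over all genes was 0.32 in CPC and 0.19 in Ctl. The cytosolic enzymes were brighter, with means of 9.04 to 10.06 on the 6 arrays, against 7.85 to 7.89 for all genes. The part of brightness in the spread and in the counts below was not tested. CPC 3 lay more than 1 log2 unit below both other CPC arrays in 6 of 19 cytosolic enzymes (Eprs, Farsb, Lars, Qars, Rars and Tars), against 7.12% of all genes. CPC 1 lay as far above both others in 3 (Gars, Qars and Tars), against 7.10% of all genes. CPC 2 lay as far below both others in 3 (Sars, Wars and Yars), against 1.47% of all genes, and as far above them in 1 (Farsb), against 4.26%. CPC 3 lay as far above in 2 (Dars and Wars), against 1.85%. Of the mitochondrial enzymes, CPC 1 lay as far above in 3 (Ears2, Fars2 and Yars2) and as far below in 1 (Iars2), for which the share of all genes was 0.43%. CPC 3 lay as far below in 1 (Yars2).

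Gars, the glycine enzyme that serves both compartments, had 12.06, 9.83 and 9.31 in CPC, against 10.14, 10.22 and 10.00 in Ctl. Tars, the threonine enzyme, had 10.81, 9.40 and 8.03 in CPC, against 8.72, 8.84 and 8.17 in Ctl. Both were high on CPC 1 and at or under Ctl on CPC 3, and neither passed (adjusted p = 0.816 and 0.485). Among genes of the amino acid response, a pair chosen after their values were seen stood out on the same array. Asns, asparagine synthetase, a classic ATF4 target, had 11.11, 6.36 and 6.46 in CPC, against 6.20, 6.16 and 6.52 in Ctl. Slc7a11, a cystine transporter, had 10.13, 5.34 and 5.61 in CPC, against 5.48, 5.37 and 5.43 in Ctl. Outside CPC 1 both lay at or under the limit of background. Of the 22 measured genes of the list, CPC 1 lay more than 1 log2 unit above both other CPC arrays in 4, against 7.10% of all genes. CPC 2 lay as far above in 3 and CPC 3 in 1, against 4.26% and 1.85%. Atf4 itself was lowest on CPC 1 among the CPC arrays.

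**Figure D3:**
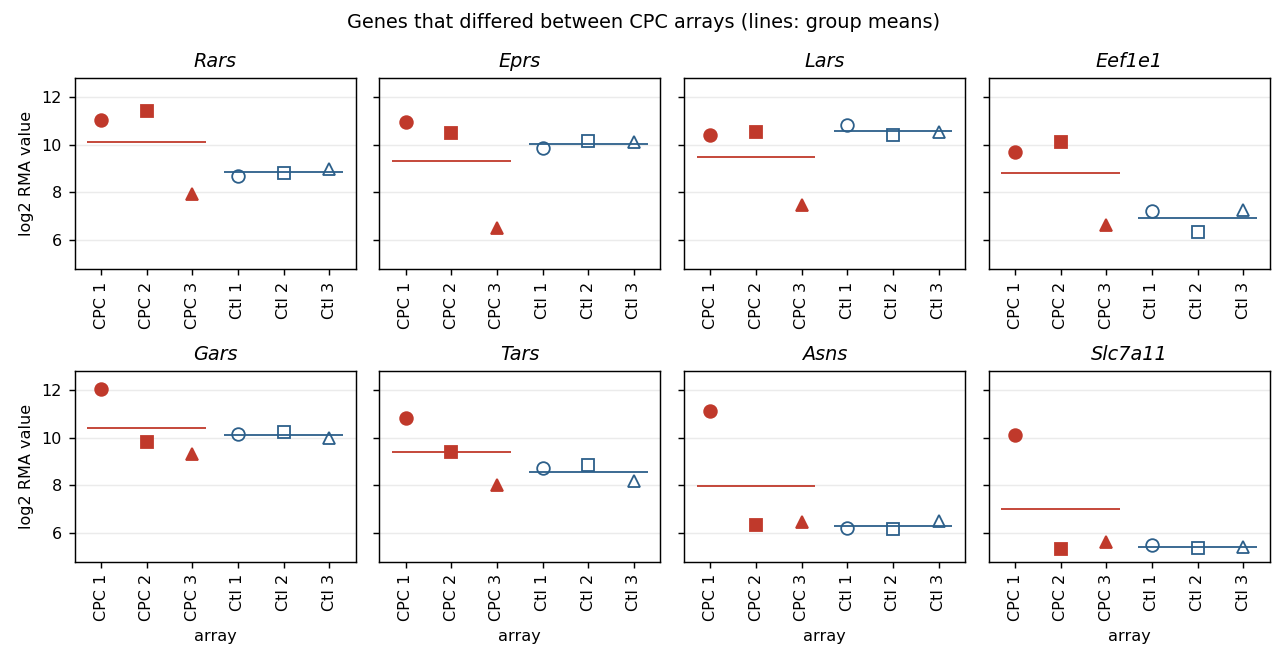
The log2 RMA value of 8 genes on each array, with the 3 CPC arrays to the left of the 3 Ctl arrays and a line at each group mean. In the upper row CPC 3 lies below CPC 1 and CPC 2, and in the lower row CPC 1 is the highest array; heights are not comparable between genes, which have different probes.

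The 5 members whose promoters hold the motif printed above differed by 0.28 (Gars), 0.84 (Tars), 0.80 (Yars), -0.44 (Iars) and 0.39 (Aars). The Yars value has its Ctl mean set to the limit of background. None of the 5 passed, and their median of 0.39 was that of all cytosolic enzymes. With Yars at its measured values, their median without CPC 1, CPC 2 and CPC 3 in turn was 0.14, 0.57 and 0.78. The 0.78 is the measured Yars difference itself, and every Ctl array of Yars lay under the limit of background. With Yars set to that limit these medians were not computed. Of 22 measured genes of the amino acid response, 1 rose and 1 fell (4.55% each), against 1.15% and 4.47% of all genes. Nupr1, a stress-induced chromatin protein, rose and Vldlr, a lipoprotein receptor, fell. Nupr1 had 12.04, 13.05 and 10.35 in CPC, against 8.92, 7.92 and 8.23 in Ctl (3.46, adjusted p = 0.0450, lost without any 1 array but CPC 3). Vldlr had 9.12, 7.29 and 8.47 in CPC, against 13.07, 12.77 and 13.05 in Ctl (-4.67, adjusted p = 0.00342). Groups were apart in both genes. Atf4 itself lay at 12.27, 12.56 and 12.85 in CPC and at 11.84, 11.94 and 12.13 in Ctl, above Ctl on every CPC array, without passing (0.59, adjusted p = 0.182). Of the list, 17 of 22 had a positive difference and the median was 0.55, beside 68.1% and 0.19 over all genes.

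Of the 16 mitochondrial enzymes, 9 differed by between 0.04 and 0.60 and 7, with Mars2 at its measured value, by between -2.29 and -0.80. Their median was 0.11, and its sign did not hold: it was -0.0018 without CPC 1, -0.0082 without CPC 2 and -0.053 with the mean of the probe sets of a gene. The groups did not overlap in 3 enzymes that lay below Ctl (Iars2, Lars2 and Mars2), against 11.0% of all genes, and in 2 above it (Pars2 and Vars2), against 21.9%.

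Mars2, the methionine enzyme of the mitochondrion, had 5.13, 4.81 and 5.18 in CPC, against 6.56, 6.93 and 6.53 in Ctl. All CPC arrays lay below all Ctl arrays. The difference was -1.63 ± 0.19 (SE, adjusted p = 0.00696). All 3 CPC arrays and 1 Ctl array were under the limit of background. With the CPC mean set to that limit, Mars2 was 1.08-fold lower in CPC. The Ctl arrays entered as measured, so this is not a strict bound. The call held without each array in turn (adjusted p from 0.0151 to 0.0361).

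Fars2, the phenylalanine enzyme, had the largest difference among the mitochondrial enzymes, at 10.84, 7.42 and 7.16 in CPC, against 10.91, 10.92 and 10.45 in Ctl. CPC 1 lay within the Ctl range and the other CPC arrays over 3 log2 units below it. The difference was -2.29 ± 0.97 (SE, adjusted p = 0.256), and -3.47 without CPC 1 (adjusted p = 0.00221). The fit without CPC 1 was picked out after the values were seen, so its smaller p gives no support for a fall. On its second probe set all CPC arrays lay below Ctl, at 7.64, 5.62 and 6.87 in CPC, against 8.34, 8.41 and 8.26 in Ctl (-1.63, adjusted p = 0.143).

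Iars2, the isoleucine enzyme, had 8.45, 9.91 and 10.15 in CPC, against 10.94, 10.84 and 10.63 in Ctl (-1.30, adjusted p = 0.189). CPC 1 was the lowest array. Its second probe set differed by 0.17. Lars2, the leucine enzyme, had 9.25, 9.23 and 9.82 in CPC, against 9.91, 11.69 and 9.96 in Ctl (-1.09, adjusted p = 0.293), where Ctl 2 stood high. A dimmer Lars2 probe set was nearly constant in CPC, at 7.42, 7.42 and 7.42, against 9.65, 9.31 and 9.21 in Ctl, and passed (-1.97, adjusted p = 0.00212), and the remaining Lars2 probe set differed by 0.29. Of all 70 probe sets of the members, 1 was higher and 2 were lower at the threshold, against 1.06% and 4.38% of all probe sets.

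Among the other enzymes with negative differences, Yars2, the tyrosine enzyme, had 10.13, 8.47 and 6.81 in CPC, against 9.53, 8.50 and 10.34 in Ctl (-0.99). Nars2 and Rars2, for asparagine and arginine, differed by -0.85 (adjusted p = 0.235) and -0.80 (adjusted p = 0.214), each with an overlap between groups. Vars2, the valine enzyme, lay above Ctl on every CPC array, at 9.17, 9.03 and 9.22 in CPC, against 8.48, 8.44 and 8.70 in Ctl (0.60, adjusted p = 0.0987). The remaining positive enzymes, Ears2, Aars2, Pars2, Sars2, Wars2, Cars2, Tars2 and Hars2, differed by 0.49 at most.

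The partner proteins of mitochondrial charging were read next. In mitochondria glutaminyl-tRNA is made from misacylated glutamyl-tRNA by an amidotransferase of the subunits Qrsl1 (GatA), Gatb and Gatc. Of 8 measured partners, 0 rose and 2 fell, against 1.15% and 4.47% of all genes, both of them subunits of that enzyme. Gatb had 9.58, 9.52 and 10.01 in CPC, against 10.83, 11.26 and 10.69 in Ctl (-1.23, adjusted p = 0.0355), and Qrsl1 had 7.97, 8.05 and 8.27 in CPC, against 9.13, 8.96 and 9.14 in Ctl (-0.98, adjusted p = 0.0214). All CPC arrays lay below all Ctl arrays in both. Gatc differed by -0.19 (adjusted p = 0.548), and Ears2, which supplies the glutamyl-tRNA, by 0.49 (adjusted p = 0.479). Gatb did not pass without any 1 array but CPC 3, and Qrsl1 did not pass without CPC 2 or any 1 Ctl array. With the mean of all probe sets of a gene, Gatb was at -0.53 (adjusted p = 0.228) and Qrsl1 at -2.74 (adjusted p = 0.000747).

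**Figure D4:**
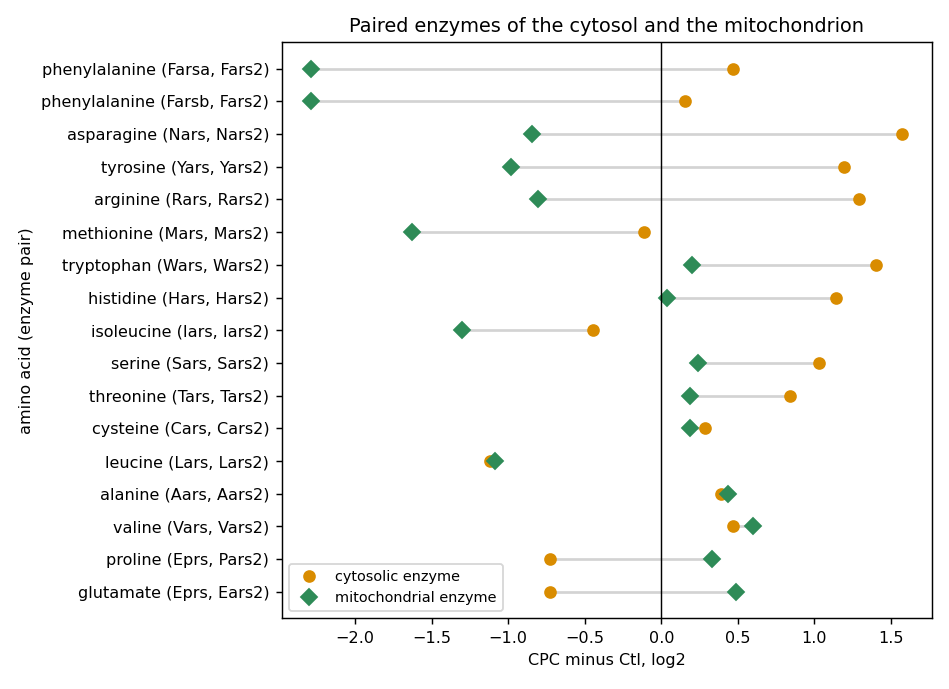
CPC minus Ctl differences on the log2 scale of the cytosolic and the mitochondrial enzyme for the same amino acid, ordered by the gap between them. Each gene is drawn at its highest-mean probe set, and for asparagine and isoleucine the other probe sets have the reverse order. In 12 of the 17 pairs the cytosolic enzyme has the larger difference, most of all for phenylalanine and asparagine. Yars and Mars2 are drawn at measured values, one of whose groups is under the limit of background.

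Enzymes for the same amino acid were set side by side in 17 pairs over 16 amino acids, with no test. The cytosolic difference was the larger in 12 pairs, and the median gap was 0.86. It was 0.79 with the lower group mean of Yars and of Mars2 set to the limit of background. The widest gaps were for phenylalanine (Farsa 0.46, Fars2 -2.29), asparagine (Nars 1.57, Nars2 -0.85) and arginine (Rars 1.29, Rars2 -0.80). The asparagine gap rests on the choice of probe set. The other probe set of each gene had the reverse order (Nars -0.31, Nars2 0.12), with that of Nars2 near the limit of background. The gap of 0.86 is that of isoleucine, whose order also turned with the second Iars2 probe set (Iars -0.44, Iars2 0.17). Fars2 and Eprs each entered more than once. With the Yars and Mars2 means at the limit, the gap was 1.79 for tyrosine (Yars 0.80, Yars2 -0.99) and 0.0051 for methionine. The order was turned for glutamate and proline, where Eprs was at -0.73, beside 0.49 for Ears2 and 0.33 for Pars2. For leucine both compartments had a negative difference of like size (Lars -1.12, Lars2 -1.09).

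The mean of the cytosolic enzymes minus that of the mitochondrial enzymes was 1.52, 1.30 and 0.91 on CPC 1, 2 and 3, against 0.50, 0.53 and 0.38 on Ctl 1, 2 and 3. All CPC arrays lay above all Ctl arrays, and the group means were 1.24 ± 0.30 in CPC and 0.47 ± 0.08 in Ctl (SD, n = 3 each). The shift was 0.78, and 0.64 to 0.94 without 1 array in turn. With the mean of the probe sets of a gene it was 0.65. Yars and Mars2 entered at measured values, and the shift would be smaller with their lower group means set to the limit of background. As the genes have different probes, only the change of this gap between arrays can be read. The cytosolic mean itself was 10.06, 9.43 and 9.14 in CPC, against 9.16, 9.27 and 9.04 in Ctl, so that CPC 3 overlapped with Ctl, while the mitochondrial mean was 8.55, 8.13 and 8.22 in CPC, against 8.66, 8.74 and 8.66 in Ctl.

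Other genes of the tRNA pathway were counted in lists. Of 5 editing and synthetase-related proteins, 0 rose and 2 fell: Prorsd1, a relative of a prolyl-tRNA editing domain (-1.15, adjusted p = 0.0228, with all CPC arrays under the limit of background and so at least 1.53-fold), and Pstk, which phosphorylates seryl-tRNA on the way to selenocysteine (-0.90, adjusted p = 0.0249). Neither passed without CPC 2, Ctl 1 or Ctl 2, nor Pstk without Ctl 3, and the mean of its probe sets put Pstk at -0.26 (adjusted p = 0.467). Of 41 tRNA modification genes, 1 rose (2.44%) and 2 fell (4.88%), shares near the 1.15% and 4.47% of all genes. Nsun2, a cytosine methyltransferase of tRNA, had 10.24, 10.06 and 9.56 in CPC, against 7.67, 7.50 and 7.33 in Ctl (2.45, or 5.48-fold, adjusted p = 0.00276). Trmt2b, a uridine methyltransferase of mitochondrial RNA, had 6.84, 7.17 and 7.34 in CPC, against 10.76, 10.59 and 10.23 in Ctl (-3.41, or 10.6-fold lower, adjusted p = 0.000705). Cdkal1, which adds a methylthio group to the lysine tRNA, had 9.59, 8.59 and 8.24 in CPC, against 10.50, 10.82 and 10.84 in Ctl (-1.92, adjusted p = 0.0369, lost without any 1 array but CPC 1). In these 3 genes the groups did not overlap. The mean of the probe sets of a gene gave smaller differences for Trmt2b (-1.68, adjusted p = 0.00143) and Cdkal1 (-1.01, adjusted p = 0.0616, no longer passing).

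None of 20 tRNA processing and export genes and none of 17 RNA polymerase III genes passed in either direction. At an unadjusted limma p under 0.05, 2 of the processing genes were higher and 1 was lower, and 3 of the polymerase genes were higher and 2 were lower, against 11.0% higher and 10.2% lower of all genes. The smallest p belonged to Tsen54, a subunit of the tRNA splicing endonuclease (0.71, adjusted p = 0.145), and to Polr3gl, a polymerase III subunit (-0.91, adjusted p = 0.0852). The medians of these lists, 0.17 and 0.12, and that of the modification genes, 0.17, lay near the 0.19 of all genes.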

How the data were processed

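RNA of 6 samples was measured on Affymetrix whole-genome mouse arrays, 1 array a sample. The deposited values were log2 intensities that the authors made with RMA (background correction, quantile normalization, probe set summary); per the submitters' processing notes Partek was also used, and no versions were given. RMA draws all arrays towards 1 distribution, so that a change shared by all genes cannot be read, and no detection calls came with the values. Columns of the authors' own comparison (signed fold change, p-value, step-up value) were not used. The genome build of the probe set annotation is not given in the sources used here.

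The file held 45101 probe sets. Without 64 controls of the manufacturer, 45037 entered the test with limma 3.58.1 in R 4.3.3 (lmFit and eBayes, two-sided), with Benjamini-Hochberg adjustment over all of them and a threshold of 0.05. Symbols were updated through the gene identifiers, and 38011 probe sets named 1 gene, which gave 20677 genes, the probe set of highest average level standing for each. Array medians lay between 7.32 and 7.47. The SD was 1.41 on CPC 3 and 1.59 to 1.66 on the other arrays, so the distributions were not identical. Precision is limited by there being 3 arrays a group. Groups came from the sample titles.

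The members and lists were chosen with earlier results of these data known. By rule, values on every array were given for members past the threshold and for the 4 largest differences in each compartment. From each list came at most 4 genes past the threshold, or that with the smallest p. Other genes given with array values were chosen after those were seen. The code was first tested on simulated data. Alternatives covered centring, a dim filter, an intensity trend, no moderation, array weights, the replicate number as a block, each array left out, and the choice of probe set.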

Additional observations from a re-analysis of the deposited data

How the results depend on the processing

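With each array left out in turn, the cytosolic enzymes past the threshold numbered 0 to 3 higher and 0 to 1 lower, and the mitochondrial ones 0 higher and 1 to 2 lower. Nars was called without CPC 2 or CPC 3 and lost in the other 4 fits. With weights estimated per array, which gave CPC 2 a weight of 5.92 and CPC 1 and CPC 3 0.32 and 0.23, 5 cytosolic enzymes were higher and 1 lower, 3 mitochondrial enzymes were higher and 5 lower, and the mitochondrial median was -0.19. That setting rests largely on 1 CPC array. With an intensity trend, without variance moderation and with the mean of the probe sets of a gene, 0 cytosolic enzymes were higher. The last of these put Nars at 0.63 (adjusted p = 0.0783) and the mitochondrial median at -0.053. A filter at the median level left 14 mitochondrial enzymes, without Mars2, and 0 were lower.

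With the replicate number as a block, 1 cytosolic enzyme was higher and 0 mitochondrial enzymes were lower (Mars2, adjusted p = 0.0546). The labels do not say whether the numbers pair the samples. Deviations of arrays with the same number correlated at -0.0471, -0.0133 and -0.1078, and those with different numbers at -0.0441 to 0.0929. With 3 arrays a group such values show no pairing but cannot exclude it. Of the 116 genes in the tRNA and amino acid response lists, 2 were higher and 7 lower. The block gave 1 higher and 2 lower, no moderation 1 and 3, array weights 33 and 22, the mean of probe sets 5 higher, and leaving out 1 array 1 to 8 higher and 2 to 8 lower. Without 1 array in turn the cytosolic median was 0.17 to 0.67 and the mitochondrial median -0.0082 to 0.1036. With array weights 10 of 12 enzymes outside the complex and 2 of 7 inside it were positive. The cause of these changes was not tested. No deposited value tells a dim probe set from an absent transcript, and with 3 arrays a group a difference of over 1 log2 unit could miss the threshold, as for Rars, Lars and Fars2.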
